A study of Mus musculus with 3 samples.

Results

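The p53-high cells described here were the intact Fgf4 -/- mouse embryonic stem cells with the highest summed level of 8 p53 target genes in their own library. They were chosen by a score, the summed UMIs (unique molecular identifiers, 1 per captured mRNA molecule) of Cdkn1a, Mdm2, Plk2, Btg2, Ccng1, Trp53inp1, Phlda3 and Zmat3 per 10000 UMIs of the cell. A cell was intact with at most 10% mitochondrially encoded UMIs and a total within 3-fold of its library's median, and the top 15% of each library formed the p53-high group. This gave 280 p53-high cells and 1583 other intact cells among 2222 deposited cell barcodes. At 0, 5 and 50 ng/ml FGF4 there were 54, 106 and 120 p53-high cells, against 305, 600 and 678 other intact cells.

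All cells came from the E14tg2a line, an established mouse embryonic stem cell line, with the Fgf4 gene mutated, and they had been seeded in stem cell medium with LIF, a cytokine that supports self-renewal. For 24 h before collection they were kept in N2B27, a serum-free medium, with heparin and Chiron, an inhibitor of the kinase GSK3, and received FGF4 protein at 0, 5 or 50 ng/ml. Each dose was 1 droplet-based 3′ single-cell library, so doses are given side by side with no test between them. The labels do not say whether the mutant cells descend from 1 clone.

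The protein p53, encoded by Trp53, is a transcription factor that is held at a low level by Mdm2 and Mdm4 and is freed from them when DNA is damaged or cells are stressed. It then switches on genes for cell cycle arrest, DNA repair, apoptosis and metabolism, and Mdm2 is among its own targets. Embryonic stem cells are known for a high basal amount of p53 and a short G1 phase.

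The group was a range of a continuous score. At 0 ng/ml the lowest score inside it was 10.1 and the highest outside it 9.89, at 5 ng/ml these were 8.66 and 8.64, and at 50 ng/ml they were 8.11 and 8.08, all in UMIs per 10000. Within 10% of the threshold lay 15, 22 and 26 p53-high cells and 15, 36 and 48 other cells at 0, 5 and 50 ng/ml. The median score was 12.2, 10.999 and 9.94 in p53-high cells, against 5.02, 4.35 and 3.91 in other cells. The cells were selected on these values, which are given as a description, and the 8 score genes are left out of every result that follows.

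Libraries held 42726514, 75184072 and 81409975 UMIs at 0, 5 and 50 ng/ml, and no barcode occurred in more than 1 library. P53-high cells were shallower, with median totals of 96300, 92055 and 85387 UMIs, against 111324, 99743.5 and 94280.5 UMIs in other cells. Their mean mitochondrial share was higher, at 6.12%, 5.52% and 5.76%, against 5.24%, 5.11% and 5.45%. Scrublet marked 1, 2 and 1 p53-high cells as doublets, against 7, 33 and 28 other cells. All 8 stem cell markers (Pou5f1, Sox2, Nanog, Zfp42, Esrrb, Dppa5a, Tdgf1 and Utf1) were measured in the p53-high cells, with summed levels of 4334, 4627 and 4502 CPM (UMIs of a gene scaled to a common library total), against 4900, 4811 and 4599 CPM in other cells. None of 12 feeder fibroblast markers reached 5 CPM, and 2 of them had no UMI at all.

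Known p53 targets that had no part in the score were higher in p53-high cells at every dose. UMIs were summed over the cells of each group in each library, and the 6 sums were compared by edgeR's quasi-likelihood test with the library as a block and Benjamini-Hochberg adjustment over all genes. The replicate in this test is the library, so it asks whether a difference repeats over the 3 libraries and says nothing of dose. Of 13974 genes tested, 3201 (22.9%) passed an adjusted p of 0.05, with 1600 (11.4%) higher and 1601 (11.5%) lower in p53-high cells. Of the 57 measured p53 targets outside the score, 38 were higher and 3 were lower, which is 66.7% higher. A gene counted as measured with at least 5 CPM in 1 of the 6 sums, and of 9916 such genes 1235 (12.5%) were higher and 1549 (15.6%) lower. The p53-high sums alone can carry a gene past 5 CPM, as they did for Perp, Inka2, Cd80, Ephx1 and Lif. The rule thus favours higher genes, in the target list and over all genes. The median log2 fold change was 0.65 over the p53 targets and -0.03 over all measured genes. The listed targets Dram1, Fas, Ier5 and Wnt9a did not reach that level. Score and targets were read in the same cells, so they share each cell's depth and RNA quality.

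The count of 38 p53 targets was the same when p53-high cells were picked within 5 strata of depth, within 5 strata of mitochondrial share or within 9 strata of cell cycle level. The median log2 fold change of the targets was smaller in these settings, at 0.62, 0.61 and 0.56, against 0.65. The count was 36 by DESeq2 and 23 without the library block. The counts over all genes moved more. They were 934 higher and 993 lower by DESeq2, 227 and 15 without the block, 1053 and 787 without the 5 ng/ml library, and 351 and 83 with a stricter cell filter.

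Seen cell by cell, the summed level of the p53 targets outside the score had a median of 49.5, 46.7 and 47.5 UMIs per 10000 in p53-high cells at 0, 5 and 50 ng/ml, against 39.5, 37.8 and 37.5 in other cells. After each cell was thinned to 25000 UMIs, which left out no intact cell, the medians were 49.0, 46.4 and 47.2, against 39.2, 38.4 and 37.6. Thinning does not alter the expected level of a cell, so these values do not bear on the part of depth. With 3 libraries an exact sign-flip permutation test cannot go below a p of 0.25, and none was made. Of the p53-high cells, 52 of 54, 103 of 106 and 117 of 120 lay above the median of the other cells of their library. Not all of them led their library in the other targets. By this level 59.3%, 57.5% and 60.8% of p53-high cells were in their library's top 15%, against 7.21%, 7.50% and 6.93% of other cells, and with thinned cells the shares were 48.1%, 46.2% and 56.7%, against 9.18%, 9.50% and 7.67%.

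**Figure D1:**
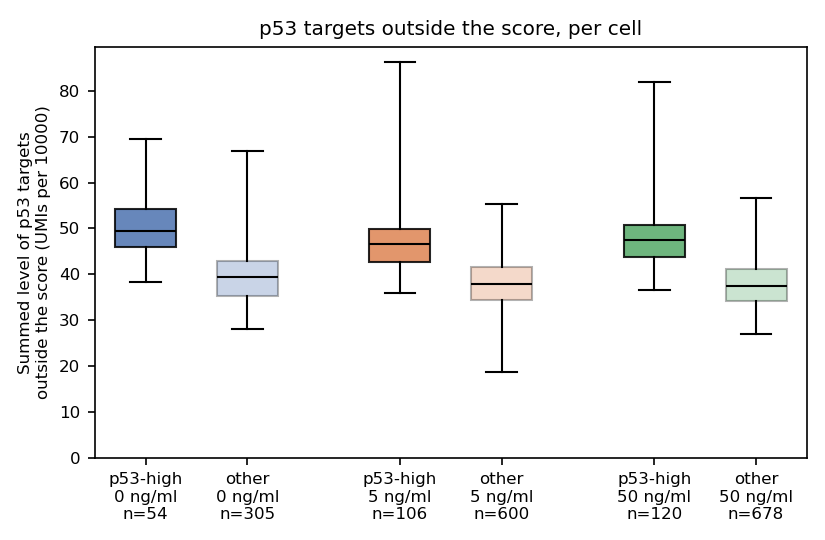
Summed level of the p53 targets outside the score in each cell (UMIs per 10000, y axis) for p53-high and other intact cells of the 3 libraries; lines are medians, boxes quartiles, whiskers the lowest and highest cell. The p53-high medians of 49.5, 46.7 and 47.5 lie above the other cells' 39.5, 37.8 and 37.5, and the ranges overlap.

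The level of these targets climbed along the whole score and did not set in at the threshold. From the lowest to the highest of 10 score deciles of cells it averaged 34.4 to 52.5 at 0 ng/ml, 33.1 to 47.3 at 5 ng/ml and 33.1 to 50.1 at 50 ng/ml, in UMIs per 10000. Across cells, score and target level had a Pearson correlation of 0.74, 0.70 and 0.76, and it was 0.54, 0.45 and 0.66 among p53-high cells alone (n = 54, 106 and 120 cells that share their library). Genes of the amino acid stress response under the transcription factor ATF4 ran the other way, from 20.7 to 12.1, from 21.2 to 13.1 and from 22.6 to 14.7 UMIs per 10000. Their fall was not steady at 0 ng/ml, where deciles 7, 8 and 9 had 14.3, 15.5 and 16.9.

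**Figure D2:**
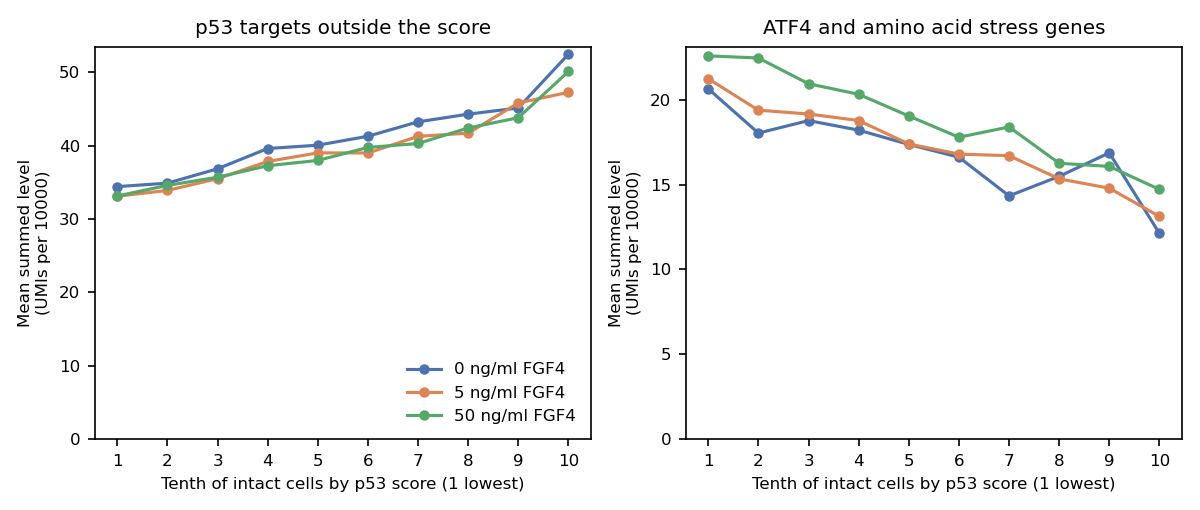
Mean summed level (UMIs per 10000, y axis) of the p53 targets outside the score (left) and of the ATF4 genes (right) in each decile of intact cells ordered by score (x axis, 1 lowest), 1 line per library. The p53 targets run from 33.1 to 34.4 in the lowest decile up to 47.3 to 52.5 in the highest, and the ATF4 genes from 20.7 to 22.6 down to 12.1 to 14.7.

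Some of these targets carry a match to the p53 response element near a start site listed by RefSeq. The element is a pair of 10-base elements with 0 to 13 bases between them, and a match here allowed at most 2 mismatches in 20 bases with the core C and G of both elements kept; being palindromic, the motif reads alike on both strands. The window was 250 bases before to 50 bases after the start in RefSeq's GRCm38.p6 table. Matches were present in 7.38% of 1246 higher genes, 4.34% of 1289 lower genes and 4.21% of 8143 genes that did not pass. The share was 4.71% of all 27025 genes with a window, and a gene with several windows counted by its best match. Among 43 named higher genes with a window, 8 had one (Gtse1, Inka2, Rps27l, Cd80, Ckap2, Gadd45a, Trp73 and Zfp365). Shown here are the windows of 4 targets with different roles, in capitals the 2 matched elements. They are Rps27l (chr9:66946163-66946462, + strand, 1 mismatch), Inka2 (chr3:105705208-105705507, + strand, 1 mismatch, 12 bases between the elements), Ckap2 (chr8:22185770-22186069, - strand, 2 mismatches) and Zfp365 (chr10:67912613-67912912, - strand, 2 mismatches, 12 bases between). In the GENCODE M21 annotation Rps27l and Inka2 start further upstream, at 66946086 and 105704599. Their windows, placed on another RefSeq start, thus lie inside the gene by that annotation. A match is a description of the sequence and no evidence of binding in these cells.
Rps27l: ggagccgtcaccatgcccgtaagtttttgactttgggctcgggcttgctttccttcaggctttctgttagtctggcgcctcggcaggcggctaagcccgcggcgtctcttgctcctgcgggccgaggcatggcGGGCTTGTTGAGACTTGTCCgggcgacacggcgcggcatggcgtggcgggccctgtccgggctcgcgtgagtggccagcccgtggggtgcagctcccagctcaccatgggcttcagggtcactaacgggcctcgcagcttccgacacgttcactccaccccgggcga
Inka2: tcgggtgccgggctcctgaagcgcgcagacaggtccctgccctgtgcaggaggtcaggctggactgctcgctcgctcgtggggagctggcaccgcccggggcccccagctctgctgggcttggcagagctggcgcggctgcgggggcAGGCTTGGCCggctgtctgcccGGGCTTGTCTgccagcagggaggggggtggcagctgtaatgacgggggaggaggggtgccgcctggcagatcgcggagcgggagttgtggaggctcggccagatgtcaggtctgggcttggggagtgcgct
Ckap2: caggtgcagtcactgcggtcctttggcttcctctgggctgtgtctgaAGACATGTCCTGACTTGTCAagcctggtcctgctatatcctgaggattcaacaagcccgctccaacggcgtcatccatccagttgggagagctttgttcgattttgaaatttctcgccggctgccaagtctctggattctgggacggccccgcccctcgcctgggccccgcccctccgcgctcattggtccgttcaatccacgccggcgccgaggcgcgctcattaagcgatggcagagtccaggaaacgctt
Zfp365: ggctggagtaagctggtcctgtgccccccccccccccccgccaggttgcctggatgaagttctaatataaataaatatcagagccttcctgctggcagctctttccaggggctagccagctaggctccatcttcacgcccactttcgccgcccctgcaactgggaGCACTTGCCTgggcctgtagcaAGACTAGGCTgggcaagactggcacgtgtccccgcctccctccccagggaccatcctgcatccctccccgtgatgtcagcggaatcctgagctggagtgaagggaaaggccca

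Of these 4 genes, Inka2, which inhibits the kinase PAK4, had 10.7, 10.2 and 6.71 CPM in p53-high cells at 0, 5 and 50 ng/ml, against 1.86, 2.05 and 1.15 CPM in other cells. Its log2 fold change was 2.44 (SE 0.16, adjusted p = 1.94e-08, edgeR). Zfp365, a zinc finger protein linked to genome stability, had 35.8, 37.6 and 32.3 CPM, against 11.6, 8.88 and 8.61 CPM, a log2 fold change of 1.88 (SE 0.092, adjusted p = 5.43e-10). Both were separated between the groups in each library. Ckap2, a spindle protein, had 118, 102 and 100 CPM, against 74.5, 69.5 and 63.9 CPM (log2 fold change 0.62). Rps27l, which encodes a ribosomal-protein-like p53 target, was far more abundant and differed least, with 1406, 1325 and 1323 CPM, against 1202, 1177 and 1110 CPM (log2 fold change 0.21, adjusted p = 1.77e-03). It closely resembles Rps27, so its count is less certain than those of the other genes.

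Targets linked to cell death, which either promote or restrain it, had 10 of 12 measured genes higher and none lower, with a median log2 fold change of 0.94. This split of the targets by role was made after their values were seen. For comparison, 66.7% of the whole target list and 12.5% of all measured genes were higher. Perp, a membrane protein of desmosomes and of p53-dependent apoptosis on chromosome 10 (18845020 to 18857073, + strand, GRCm38), stood highest, with 21.3, 25.5 and 25.5 CPM in p53-high cells, against 4.59, 3.64 and 4.42 CPM in other cells. Its log2 fold change was 2.53 (SE 0.13, adjusted p = 7.07e-10), and it was measured through its p53-high sums alone. The BH3-only proteins Noxa and Puma bind and disable the antiapoptotic Bcl2 proteins. Bbc3, which encodes Puma, had 35.3, 38.4 and 38.5 CPM, against 17.1, 17.6 and 17.8 CPM, a log2 fold change of 1.097 (SE 0.069, adjusted p = 1.05e-08). Its levels were close to equal at all 3 doses in both groups. Pmaip1, which encodes Noxa, had 5.73, 29.9 and 30.2 CPM, against 1.31, 9.66 and 13.3 CPM (log2 fold change 1.48, SE 0.12). The level of Pmaip1 was thus low in both groups without FGF4, while its ratio there was 4.37 (95% counting interval 2.70 to 6.97), against 2.26 (1.99 to 2.57) at 50 ng/ml.

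Apaf1, the scaffold of the apoptosome that activates caspase-9, was higher by 1.37 on the log2 scale, with 34.4, 28.7 and 25.3 CPM in p53-high cells, against 14.6, 10.4 and 9.50 CPM in other cells. Pidd1, which activates caspase-2, was higher by 1.13, and the receptors Eda2r and Tnfrsf10b of the TNF receptor family by 1.00 and 0.88. Ei24 and the nuclease gene Aen were higher by 0.64 and 0.31, and Triap1, an inhibitor of apoptosis, by 0.19. Bax, which opens the outer mitochondrial membrane and is among the best known p53 targets, had 803, 772 and 838 CPM, against 759, 720 and 753 CPM. Its log2 fold change of 0.11 did not pass (adjusted p = 0.0827), although it was higher in 3 of 3 libraries. The antiapoptotic Bcl2l1 had a log2 fold change of -0.01 (adjusted p = 0.962). The shared apoptosis machinery, listed apart, had 1 of 15 measured genes higher and 4 lower, Bak1 (-0.25), Aifm1 (-0.16), Cycs (-0.13) and Endog (-0.38, named after its value was seen). The 4 lower genes are 26.7%, against 15.6% of all measured genes and 1308 of the 5447 genes with at least 20 CPM.

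Fas, a death receptor, lay under the 5 CPM limit and was looked at after its values were seen. It had 10, 20 and 16 UMIs in p53-high cells, against 6, 23 and 14 UMIs in the larger group of other cells. The ratios of CPM were 10.9 (95% counting interval 3.59 to 36.5), 5.51 (2.87 to 10.5) and 7.11 (3.25 to 15.7).

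DNA repair targets were divided. Polk, a polymerase that copies past DNA lesions, had 39.2, 33.2 and 27.2 CPM in p53-high cells, against 14.9, 13.8 and 12.7 CPM in other cells (log2 fold change 1.24, SE 0.076). Ercc5, the endonuclease that cuts on the 3′ side of a lesion in nucleotide excision repair, had 51.5, 45.1 and 41.8 CPM, against 16.5, 21.4 and 19.4 CPM (1.24, SE 0.085). Gadd45a was higher by 0.29. The damage sensors Ddb2 and Xpc and the ribonucleotide reductase subunit Rrm2b had log2 fold changes of -0.02, -0.05 and -0.09 and did not pass (adjusted p = 0.939, 0.655 and 0.708). Genes of DNA damage signalling and repair that are not p53 targets had 1 of 25 higher and 7 (28%) lower. The 7 included Parp1 (-0.27), H2afx (-0.20) and Lig1 (-0.18). For comparison, 15.6% of all measured genes were lower, and 1308 of the 5447 genes with at least 20 CPM.

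Metabolic and stress targets went in both directions, 7 of 13 measured higher and 3 lower. For comparison, 66.7% of the whole target list was higher and 5.26% lower, and of all measured genes 12.5% and 15.6%. Of the 7, Ephx1 was measured through its p53-high sums alone. Ddit4 and Ddit4l, both inhibitors of the growth kinase complex mTORC1, were among the leading genes of the whole comparison. Ddit4l had 48.7, 60.9 and 62.1 CPM in p53-high cells, against 17.2, 16.3 and 13.7 CPM in other cells (log2 fold change 1.89, SE 0.099, adjusted p = 1.22e-09). Ddit4 had 61.0, 48.7 and 33.9 CPM, against 16.6, 12.8 and 15.6 CPM (1.63, SE 0.11, adjusted p = 2.15e-08). The pair differed in their course over dose: the p53-high level was lowest at 0 ng/ml for Ddit4l and at 50 ng/ml for Ddit4. Sesn2, which also restrains mTORC1, was higher by 0.66, the detoxifying enzyme genes Ephx1 and Dcxr by 1.76 and 1.52, the adenosine deaminase gene Ada by 1.22 and the adenylate kinase gene Ak1 by 0.67. The 3 lower targets were Nupr1 (-0.97), Tigar, which diverts glucose to the pentose phosphate pathway (-0.28), and the glutathione peroxidase gene Gpx1 (-0.15).

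**Figure D3:**
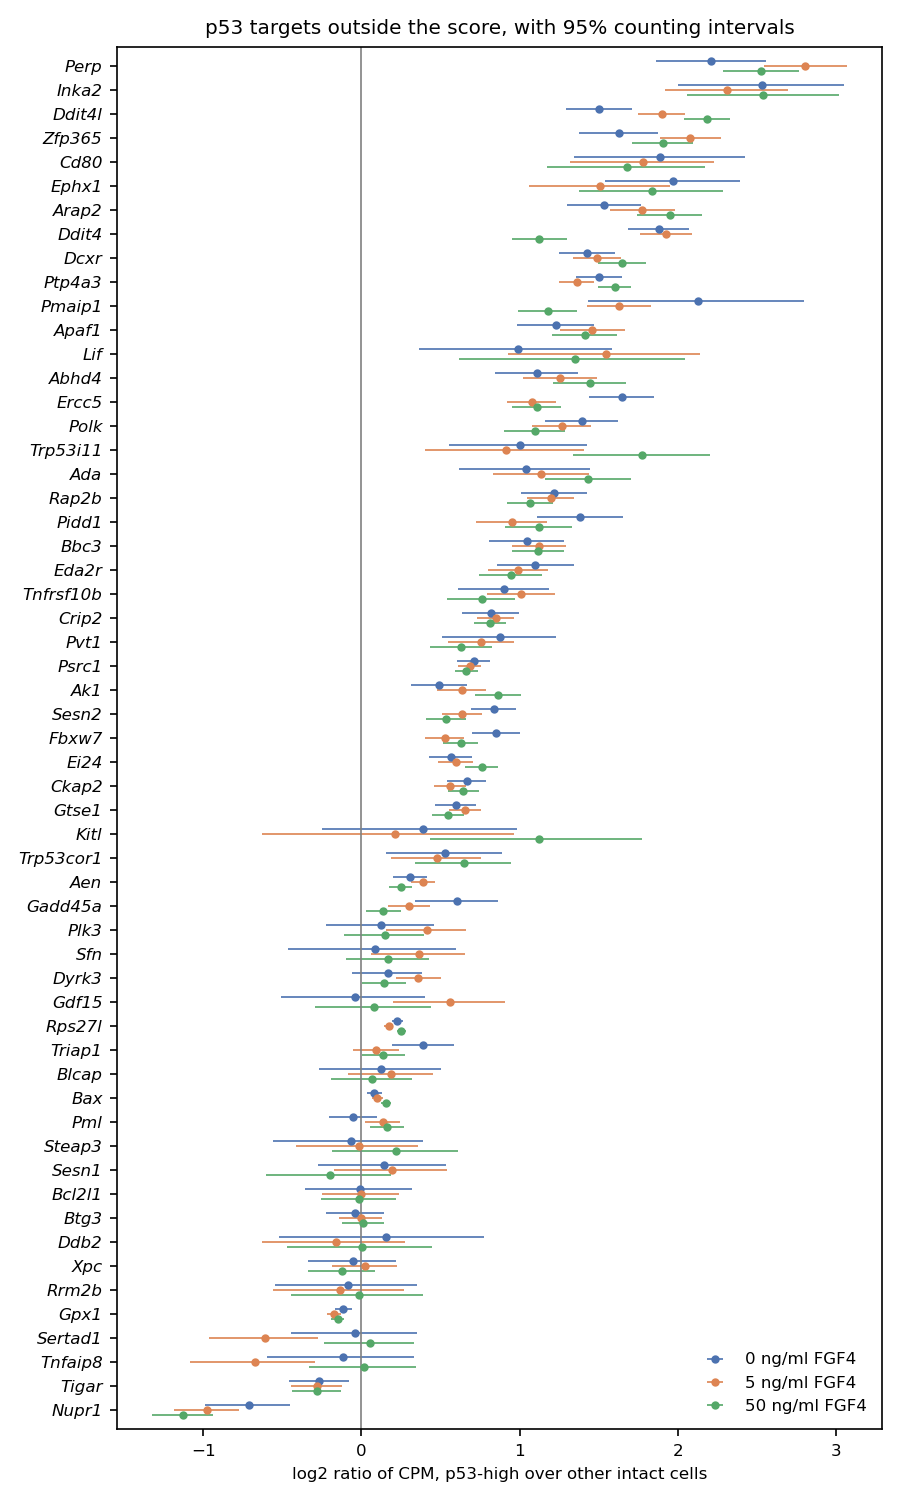
log2 ratio of CPM in p53-high over other intact cells (x axis) for each of the 57 measured p53 targets outside the score (rows), 1 point per library with its 95% counting interval. Perp (log2 fold change 2.53) and Inka2 (2.44) stand at the top, Bax (0.11) near 0 and Nupr1 (-0.97) at the bottom.

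Among regulators of p53, 6 of 21 measured were higher (28.6%, against 12.5% of all measured genes) and 3 lower (14.3%, against 15.6%). Their median log2 fold change was 0.05. Mdm4, the Mdm2 relative that binds p53 and masks its activation domain (chromosome 1, 132959484 to 133030561, - strand), had 159, 151 and 121 CPM in p53-high cells, against 84.0, 72.04 and 64.6 CPM in other cells. Its log2 fold change was 0.96 (SE 0.045, adjusted p = 3.22e-10). Trp73, a p53 relative, was higher by 1.87 at a low level of 11.1, 11.3 and 7.17 CPM, against 4.32, 2.53 and 1.71 CPM. It was measured through its p53-high sums alone. The phosphatase gene Ppm1d, which dephosphorylates p53, was higher by 0.60, the p53 cofactor gene Ppp1r13b by 0.69, Cdkn2a, whose ARF product blocks Mdm2, by 0.44 and the ubiquitin ligase gene Rchy1 by 0.33. Daxx (-0.21), the checkpoint kinase gene Chek1 (-0.19) and Aurka (-0.16) were lower. Trp53 itself had 334, 353 and 350 CPM, against 359, 353 and 362 CPM, and its log2 fold change of -0.06 did not pass (adjusted p = 0.381). The ratio of Trp53 per library was 0.929 (95% counting interval 0.885 to 0.975), 1.00 (0.965 to 1.04) and 0.968 (0.935 to 1.00).

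Among the 12 genes with the largest rise at 20 CPM or more, 7 were on the p53 target list (Ddit4l, Zfp365, Arap2, Ddit4, Dcxr, Ptp4a3 and Apaf1) and 5 were not. The 5 were Serpine2, Rtkn, Ptpn14, Sdc4 and Wdr35. Serpine2, a secreted serine protease inhibitor (chromosome 1, 79794197 to 79861180, - strand), led them with 45.3, 47.8 and 48.9 CPM in p53-high cells, against 11.4, 11.4 and 10.0 CPM in other cells. The log2 fold change was 2.12 (SE 0.080, adjusted p = 2.21e-11, edgeR). Rtkn, which encodes rhotekin, had 36.5, 34.2 and 33.0 CPM, against 9.65, 8.14 and 7.30 CPM (2.06, SE 0.087). Ptpn14, a tyrosine phosphatase that restrains the coactivator YAP, had 45.1, 47.2 and 43.6 CPM, against 13.6, 13.7 and 10.9 CPM (1.84, SE 0.078). In each of these 3 genes every p53-high sum lay above every other sum, with counting intervals of the ratio well clear of 1.

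Sdc4, the heparan sulfate proteoglycan syndecan-4, had 122, 103 and 128 CPM in p53-high cells, against 47.7, 37.1 and 36.8 CPM in other cells (1.55, SE 0.071). Wdr35, a part of the retrograde transport complex of cilia, had 68.9, 84.2 and 82.5 CPM, against 26.3, 33.6 and 31.0 CPM (1.37, SE 0.053). The phosphatase Ptp4a3 had 98.96, 95.2 and 99.3 CPM, against 34.9, 37.0 and 32.7 CPM (1.48, SE 0.055). The Arf GTPase-activating protein Arap2 had 39.4, 30.8 and 29.2 CPM, against 13.6, 8.99 and 7.55 CPM (1.75, SE 0.093). Rises of at least 2-fold were found for 463 genes, of which 32 had 20 CPM or more, and falls of at least 2-fold for 32 genes, of which 0 did. Over the 5447 genes with at least 20 CPM, 585 were higher and 1308 lower. Large rises thus lay mostly among weakly expressed genes, and the falls of abundant genes were small and many.

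**Figure D4:**
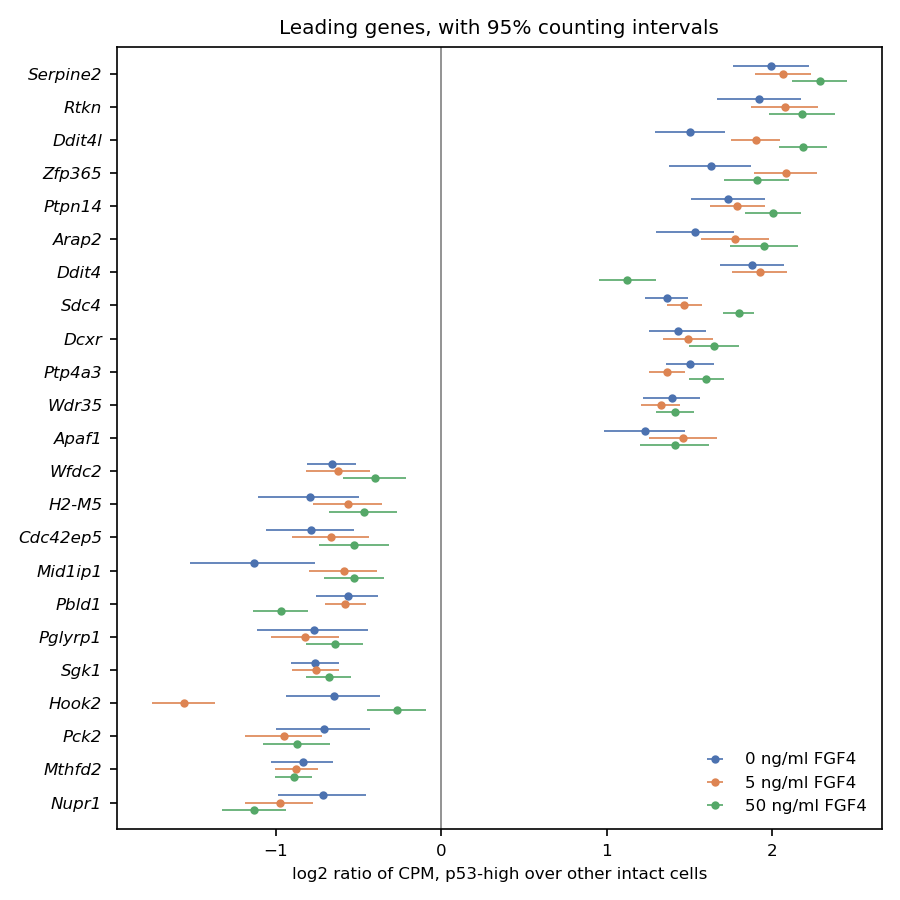
log2 ratio of CPM in p53-high over other intact cells (x axis) for leading higher and lower genes with at least 20 CPM, 1 point per library with its 95% counting interval. Serpine2 (log2 fold change 2.12) is at the top and Nupr1 (-0.97) at the bottom, and the lower genes lie closer to 0 than the higher ones.

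Most listed genes of the ATF4 response were lower in p53-high cells. ATF4 is a transcription factor that raises amino acid synthesis and transport when amino acids run short or proteins misfold. Of 17 measured genes 12 were lower (70.6%) and 1, Sesn2, was higher (5.88%), with a median log2 fold change of -0.41. Of all measured genes 15.6% were lower and 12.5% higher, and of the 5447 genes with at least 20 CPM 1308 were lower. Sesn2 is on the p53 target list as well. Mthfd2, a mitochondrial enzyme of folate metabolism (chromosome 6, 83305691 to 83325908, - strand), had 45.8, 53.1 and 66.3 CPM in p53-high cells, against 81.7, 97.3 and 123 CPM in other cells. The log2 fold change was -0.87 (SE 0.046, adjusted p = 1.38e-09). Psat1, an enzyme of serine synthesis, had 160, 189 and 211 CPM, against 233, 287 and 301 CPM (-0.55, SE 0.041). Phgdh, the first enzyme of that route, and Atf4 itself, both chosen after their values were seen, had log2 fold changes of -0.51 and -0.38. The asparagine synthetase gene Asns (-0.32), the seryl-tRNA synthetase gene Sars (-0.41) and the amino acid transporter subunit Slc3a2 (-0.23) were also lower.

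Nupr1, a small stress-induced chromatin protein that is on both the ATF4 and the p53 target list, had the largest fall among the genes with at least 20 CPM. It had 22.9, 21.1 and 22.1 CPM in p53-high cells, against 37.6, 41.6 and 48.3 CPM in other cells (log2 fold change -0.97, SE 0.073, adjusted p = 7.73e-08). Pck2, the mitochondrial enzyme that makes phosphoenolpyruvate, had 20.6, 16.8 and 20.4 CPM, against 33.6, 32.4 and 37.4 CPM (-0.86, SE 0.073). Sgk1, a kinase downstream of PI3 kinase, had 73.4, 45.7 and 46.0 CPM, against 124, 77.2 and 73.7 CPM (-0.74, SE 0.050). Hook2, a microtubule linker, was lower by 0.86 on the log2 scale, but the 5 ng/ml library weighed most, with 23.9 CPM, against 70.1 CPM. At 0 and 50 ng/ml Hook2 had 20.8 and 26.95 CPM, against 32.5 and 32.4 CPM, and DESeq2 did not call it (adjusted p = 0.129). Further leading lower genes were Pglyrp1 (-0.73), Pbld1 (-0.71), Mid1ip1 (-0.67), Cdc42ep5 (-0.65), H2-M5 (-0.59) and Wfdc2 (-0.58).

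S-phase genes were lower as a group, 18 of 33 with none higher and a median log2 fold change of -0.15. The changes were small for the abundant ones: the replication clamp Pcna fell by 0.20, the chromatin remodeller Hells by 0.22, the helicase subunit Mcm3 by 0.15 and the histone chaperone Nasp by 0.15 on the log2 scale. The 3 with the largest falls, chosen after their values were seen, act at the entry into S phase. They were the cyclins Ccne2 (-0.75) and Ccne1 (-0.56), which start DNA replication with Cdk2, and the origin licensing factor Cdc6 (-0.55). Ccne1 had 135, 209 and 241 CPM in p53-high cells, against 199, 313 and 350 CPM in other cells (SE 0.041, adjusted p = 4.96e-08). Per cell, 53.7%, 50.0% and 58.3% of p53-high cells lay in the lowest tertile of their library's summed S-phase level, against 29.5%, 30.3% and 28.9% of other cells. After thinning to equal depth the shares were 53.7%, 50.9% and 55.8%, against 29.5%, 30.2% and 29.4%. Of 40 G2/M genes 10 (25%) were lower and 1, Hmmr (0.25), was higher, and Top2a (-0.16) and Cdk1 (-0.20) were among those lower. Of all measured genes 15.6% were lower, and of the 5447 genes with at least 20 CPM 1308 were, so the G2/M count was near that of abundant genes. The lowest tertile by G2/M level held 46.3%, 47.2% and 36.7% of p53-high cells, against 30.8%, 30.8% and 32.7% of other cells. The highest G2/M tertile differed little, with 31.5%, 31.1% and 33.3% of p53-high cells, against 33.8%, 33.8% and 33.3% of other cells.

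Pluripotency genes were lower by a small amount. Of the naive genes 12 of 23 were lower (52.2%), of the core genes 6 of 9 (66.7%) and of the formative genes 7 of 13 (53.8%). For comparison, 15.6% of all measured genes were lower, and 1308 of the 5447 genes with at least 20 CPM. Only the formative list had a higher gene, Sox4 (0.22). Nanog had 243, 118 and 88.3 CPM in p53-high cells, against 286, 157 and 107 CPM in other cells (log2 fold change -0.32, SE 0.043). Zfp42 had 350, 472 and 407 CPM, against 470, 578 and 500 CPM (-0.34), and Klf2 (-0.33) and Sall4 (-0.22) were lower too. Pou5f1 (Oct4) was lower by 0.16 on the log2 scale, while Sox2, named after its values were seen, had a log2 fold change of 0.04 (adjusted p = 0.686). All of these factors were thus still expressed in p53-high cells. The de novo methyltransferases Dnmt3a (-0.47) and Dnmt3b (-0.29) of the formative list were lower at every dose. Genes of cholesterol synthesis had 10 of 17 lower (58.8%, against the same 15.6%) and none higher, with Fdps at -0.30 and Hmgcs1 at -0.17.

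**Figure D5:**
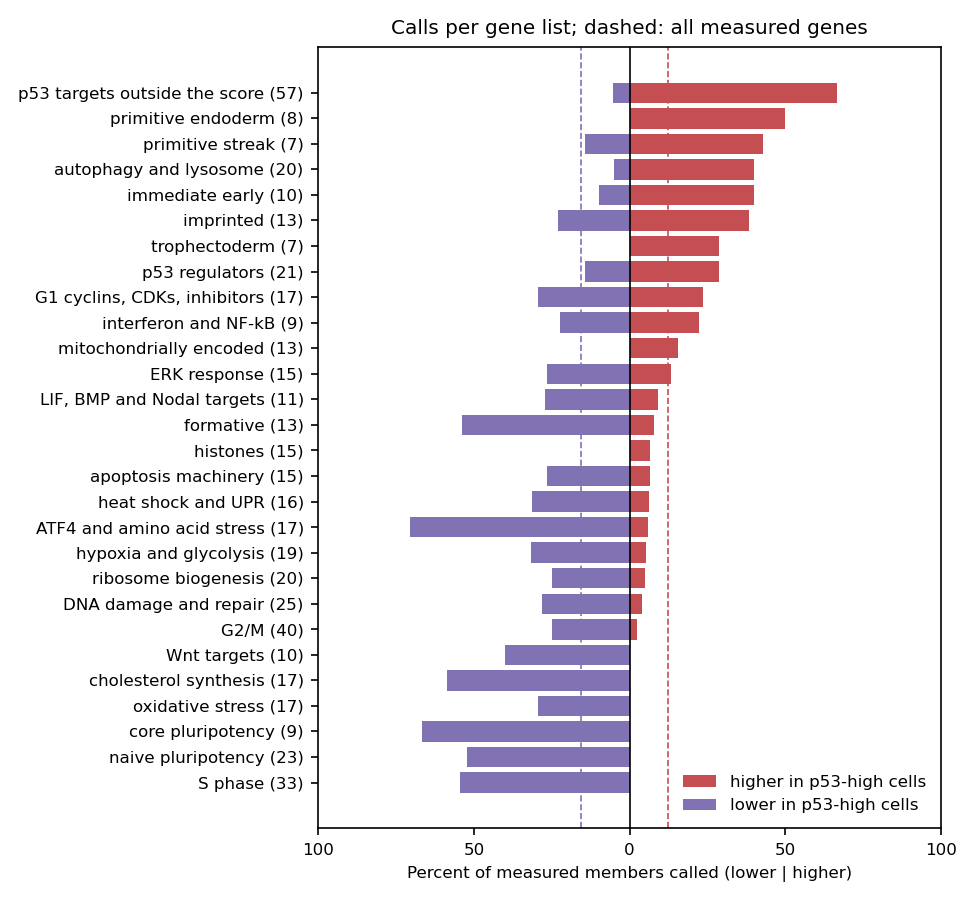
Percent of the measured members of each gene list (rows, number of measured members in brackets) called higher in p53-high cells (right) or lower (left) by edgeR; dashed lines mark all 9916 measured genes. The p53 targets outside the score lie far to the right with 66.7% higher, and the ATF4, core, cholesterol, S-phase, formative and naive lists lie to the left.

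The differences were alike in direction over the libraries. Of the 1600 higher genes 1573 were higher in each of the 3 libraries, and of the 1601 lower genes 1567 were lower in each, which the call itself favours. Over the 5447 genes with at least 20 CPM, the log2 ratios had Pearson correlations across genes of 0.76 between 0 and 5 ng/ml, 0.63 between 0 and 50 ng/ml and 0.77 between 5 and 50 ng/ml, and genes are not independent replicates. Of the p53 targets outside the score, 38, 42 and 41 had a counting interval of the ratio above 1 at 0, 5 and 50 ng/ml, and 3, 5 and 3 had one below 1. The median log2 ratio over the list was 0.67, 0.63 and 0.65.

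A few ratios differed between libraries by more than counting error, and whether dose or the library set them cannot be told apart. For Ddit4l the ratio was 2.84 (95% counting interval 2.45 to 3.28), 3.73 (3.37 to 4.13) and 4.54 (4.11 to 5.02) at 0, 5 and 50 ng/ml. Ddit4 had 3.68 (3.21 to 4.21), 3.80 (3.38 to 4.25) and 2.18 (1.93 to 2.46). Ercc5 had 3.13 (2.71 to 3.605), 2.11 (1.89 to 2.35) and 2.16 (1.94 to 2.40). Each of the 3 genes stayed above 1 in all libraries. For Bbc3 the ratios of 2.07, 2.18 and 2.17 had overlapping intervals, and so had those of Psrc1 (1.64, 1.61 and 1.58) and Crip2 (1.76, 1.80 and 1.76).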

How the data were processed

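The deposited files held whole-number counts of UMIs per gene and cell barcode, made by the authors with Cell Ranger 4.0.0, per the file headers, on build mm10, per the submitters' processing notes. Neither the annotation release nor the rule for choosing barcodes is named in the labels or headers. Of 32285 gene IDs, 32158 matched GENCODE M21 (GRCm38), the source of gene coordinates. Intact cells were chosen as stated, which left out 14, 168 and 177 barcodes at 0, 5 and 50 ng/ml, 12, 133 and 153 of them for mitochondrial share; 0, 24 and 24 of the barcodes left out had a score above the threshold. Doublets were marked with Scrublet (scanpy 1.11.5) and kept.

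UMIs were summed per library and group and fitted with edgeR 4.0.16 (R 4.3.3; TMM, filterByExpr, library as a block, 2 residual degrees of freedom), called at an adjusted p of 0.05, and the procedure was tested on simulated data. The SE of a log2 fold change was its size over the square root of the F statistic. CPM used the summed totals, and ratios per library carry 95% conditional binomial intervals (Clopper-Pearson), for counting error only. The 3 libraries are the replicates, and nothing says that they were independent cultures beyond their dose.

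Members and gene lists were chosen with earlier results of these data known. Named genes were the 12 with the largest fold change in each direction among those past the threshold in the same direction in 3 libraries with at least 20 CPM, without score, ribosomal protein and predicted genes, plus all measured p53 targets and regulators and up to 4 of the most abundant called genes of each other list. Of the listed symbols, 3 were updated through RefSeq synonyms. Alternatives covered normalization, DESeq2 1.42.0, the filter, the block, libraries, the score and the cell filters. Strata of mitochondrial share were added after seeing the data. Results for some genes are not reported here.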

Additional observations from a re-analysis of the deposited data

Results flagged for a closer look

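Atm, the kinase that starts the response to DNA breaks, had a ratio of p53-high over other cells of 1.20 at 0 ng/ml (95% counting interval 1.05 to 1.38), and of 0.876 at 5 ng/ml (0.785 to 0.975), with 0.906 (0.813 to 1.01) at 50 ng/ml. It is listed because the intervals at 0 and 5 ng/ml lie on opposite sides of 1. The levels were 45.6, 38.6 and 36.4 CPM in p53-high cells, against 38.0, 44.0 and 40.2 CPM in other cells, and the difference between libraries was not tested.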

How the results depend on the processing

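The counts of higher and lower genes, 1600 and 1601, were 934 and 993 by DESeq2, 227 and 15 without the library block, 351 and 83 with the stricter cell filter (at most 5% mitochondrial UMIs, 2-fold of the median; 19, 45 and 33 p53-high cells) and 872 and 804 with cells thinned before summing. With no filter on low counts 2970 genes were lower. Leaving out 1 library gave 1053 to 1412 higher and 787 to 1297 lower genes, fewest without the 5 ng/ml library (1 residual degree of freedom). The 38 higher p53 targets were 23 without the block and 33 to 40 otherwise. Higher genes made up 50.0% of calls, but 32.7% with no filter, 80.9% with the stricter filter and 93.8% without the block. The causes were not tested. Without the block the dose differences enter the residual spread. Leaving out each score gene gave 1507 to 1595 higher genes. Of 162 named genes followed over 28 settings, 36 kept direction and call in all, and of 4532 pairs of gene and setting 4030 kept both, 496 lost the call and 6 changed direction. The 6 were all under the stricter filter and not past the threshold: Krt18 (-0.21), Aifm1 (0.0078), Gabarapl2 (0.00154), Ldha (0.0613), Grb10 (0.0202) and Tubb3 (0.0272). No paired analysis between doses was possible because each dose has 1 library.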

Other observations

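Regulators of the G1 phase split in p53-high cells. Of 17 measured genes 4 were higher (23.5%, against 12.5% of all measured genes) and 5 lower (29.4%, against 15.6%). The higher genes, named after their values were seen, were the CDK inhibitor genes Cdkn2b (log2 fold change 2.14) and Cdkn1c (0.18) and the pocket protein genes Rb1 and Rbl2 (1.15), which hold back E2F factors. Rb1 had 23.3, 19.8 and 17.8 CPM in p53-high cells at 0, 5 and 50 ng/ml, against 10.4, 6.91 and 5.51 CPM in other cells (1.46, SE 0.12, adjusted p = 1.97e-07, edgeR). The lower genes were the cyclin D genes Ccnd1 (-0.26), Ccnd2 (-0.54) and Ccnd3 (-0.46) and the E2F genes E2f3 (-0.16) and E2f4 (-0.23). Ccnd2 was not lower in every library, with 12.7 CPM in p53-high cells, against 7.02 CPM in other cells at 0 ng/ml. Lysosome and autophagy genes had 8 of 20 higher (40%, against 12.5% of all measured genes) and 1, Gabarapl2 (-0.17), lower (5%, against 15.6%). The lysosomal protease gene Ctsd had 134, 111 and 116 CPM in p53-high cells, against 77.9, 67.1 and 66.3 CPM in other cells at 0, 5 and 50 ng/ml (0.76, SE 0.044, adjusted p = 3.62e-09). The lysosome membrane gene Lamp1 was higher by 0.27 on the log2 scale.

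Of 10 measured immediate early genes 4 were higher (40%, against 12.5% of all measured genes) and 1, Ier2 (-0.34), lower (10%, against 15.6%). Egr1 had 70.9, 26.1 and 14.5 CPM in p53-high cells, against 36.5, 14.3 and 8.73 CPM in other cells (0.86, SE 0.072). With the stricter cell filter the log2 fold change of Egr1 was 0.0095 (adjusted p = 0.994), and it did not pass without the library block (adjusted p = 0.687). Jun had 8.05, 8.76 and 7.08 CPM, against 1.61, 1.62 and 2.01 CPM (2.17, SE 0.18). It was measured through its p53-high sums alone. In a list of LIF, BMP and Nodal targets 3 of 11 measured genes were lower (27.3%, against 15.6% of all measured genes). The 1 higher gene (9.09%, against 12.5%) was Lefty1, a Nodal inhibitor. It had 167, 106 and 56.1 CPM, against 90.5, 54.8 and 26.6 CPM (0.95, SE 0.052). Few cells held much of it: at 0, 5 and 50 ng/ml 2 p53-high cells held 341 of 935, 226 of 1048 and 185 of 610 UMIs, against 276 of 3311, 264 of 3449 and 168 of 1799 UMIs in the top 2 of the other cells. At 0 ng/ml 34 of 54 p53-high cells had a Lefty1 UMI, against 223 of 305 other cells. Without the library block Lefty1 did not pass (adjusted p = 0.525). Of 7 measured primitive streak genes 3 were higher (42.9%, against 12.5% of all measured genes), among them Nodal (0.86, SE 0.077). The 1 lower gene was 14.3%, against 15.6%. Of 8 measured primitive endoderm genes 4 were higher (50%, against 12.5%). Among them Gata6 rested on few cells: at 50 ng/ml 2 p53-high cells held 96 of its 106 UMIs. Wnt3 of the streak list and Gata6 and Col4a2 of the endoderm list were measured through their p53-high sums alone. Mitochondrially encoded genes had 2 of 13 higher (15.4%, near the 12.5% of all measured genes), mt-Co3 (0.27) and mt-Co1 (0.15), beside the higher mitochondrial share of p53-high cells.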
